A study of Mus musculus with 14 samples.

Results

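The antioxidant and thioredoxin system was followed through 31 genes, chosen by name, that encode superoxide dismutases, glutathione peroxidases, enzymes of glutathione synthesis and recycling, thioredoxins, peroxiredoxins, glutaredoxins and the regulators of these genes. All 31 were found among the 52459 genes of the deposited count table, and all 31 were among the 16350 genes that passed the filter on low counts. The RNA came from cells of dispersed pancreatic islets of 7-month-old male mice of the common inbred strain C57BL/6J. The cells had been sorted by flow cytometry into beta-galactosidase-positive cells (7 libraries, below "positive") and beta-galactosidase-negative cells (7 libraries, "negative"), by the activity of this lysosomal enzyme at acidic pH, a common marker of cellular senescence. No genotype or treatment was given for either group, and the labels do not say whether a library came from 1 animal or from several. The comparison asked how the transcripts of islet cells that carried this marker differed from those of islet cells that did not.

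Superoxide dismutases turn superoxide into hydrogen peroxide, which glutathione peroxidases and peroxiredoxins then reduce. The first mostly use glutathione, which is made from cysteine, glutamate and glycine, and the others mostly use thioredoxin, and both carriers are regenerated with NADPH. The transcription factor NRF2, encoded by Nfe2l2, raises many of these genes when KEAP1 no longer targets it for degradation. Beta cells are known for low catalase and low glutathione peroxidase activity compared with tissues such as liver.

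Total counts were 15585779 to 24577025 reads in positive and 11060144 to 23045934 reads in negative libraries. Beta cell genes were abundant in every library: the summed level of 12 beta cell markers was 99653 to 129961 CPM (counts scaled to the total of their library) in positive and 103733 to 154904 CPM in negative libraries. Other islet and pancreatic cells were present too. Of 16 macrophage and dendritic cell markers 15 were tested and all 15 were higher in positive cells, with a summed level of 99.2 to 945 CPM in positive and 18.3 to 28.3 CPM in negative libraries, and 10 of the 16 were at 0 in at least 1 negative library. Of 14 endothelial markers 13 were tested and all 13 were higher (328 to 1095 CPM in positive, 8.03 to 63.1 CPM in negative libraries), while Cldn5 was at 0 in all 7 negative libraries. Markers near 0 in the negative libraries passed the filter on low counts through the positive ones, where they had to be the higher. The counts of 15 and 13 were therefore partly fixed in advance. Over all genes tested, 6.40% were called higher and 1.63% lower. Positive 6 and positive 7 stood apart, with macrophage sums of 945 and 656 CPM against at most 145 CPM in the other positive libraries. Negative 3 stood apart in the sum of 13 pericyte, stellate and fibroblast markers, at 1464 CPM against at most 72.8 CPM in the other negative libraries. Delta cell markers were higher in positive cells in 2 of 3 tested (summed 309 to 2198 CPM in positive and 81.8 to 435 CPM in negative libraries), and acinar markers were lower in 5 of 11 (55.2 to 898 CPM in positive and 192 to 1434 CPM in negative libraries). Of the markers of beta cells 1 of 12 was lower, with all 12 below 0 and 6 at an unadjusted p below 0.05, and of those of alpha, ductal and PP cells 0 of 16 tested were called, with 5 at an unadjusted p below 0.05. Of all 16350 genes tested, 3457 had an unadjusted p below 0.05. With the replicate number as a block 7 beta cell and 10 acinar markers were lower, and 1 ductal marker was higher and 1 lower. In that fit 11.8% of all genes tested were higher and 7.77% lower. Because each library is a mixture, fewer cells of a type and less RNA per cell cannot be told apart in any value given here.

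Most of the system did not pass the test between the groups. Of the 31 genes, 3 were higher in positive cells, 0 were lower and 28 were not called at an adjusted p below 0.05 (edgeR's quasi-likelihood test, Benjamini-Hochberg adjustment over all 16350 genes). The 3 were Nfe2l2, Slc7a11 and Gclc. Over all genes tested, 8.03% were called, 6.40% higher and 1.63% lower, so 3 of 31 is near the background, and so is 0 of 31 lower. The median log2 fold change of the 31 genes was 0.09, and that of all genes tested was 0.00037, with 20 of the 31 above 0 and 8186 of the 16350. At an unadjusted p below 0.05 there were 7 of the 31, against 3457 of the 16350, so this count is near the background too. Beside the 3 called genes these were Gpx1, Gpx8, Prdx1 and Srxn1. When the replicate number was a block in the fit, 4 were higher and 0 lower, with Gpx1 added, where 11.8% of all genes were called higher and 7.77% lower (19.6% in all). The positive library was higher in all 7 pairs of equal replicate number in 4 of the 31 (Nfe2l2, Slc7a11, Gclc and Gclm) and lower in all 7 in 0, against 11.1% and 6.93% of all genes. Without the 4 libraries numbered 6 and 7, Nfe2l2 was the 1 gene called without the block, and Nfe2l2 and Nfe2l1 were called with it.

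**Figure D1:**
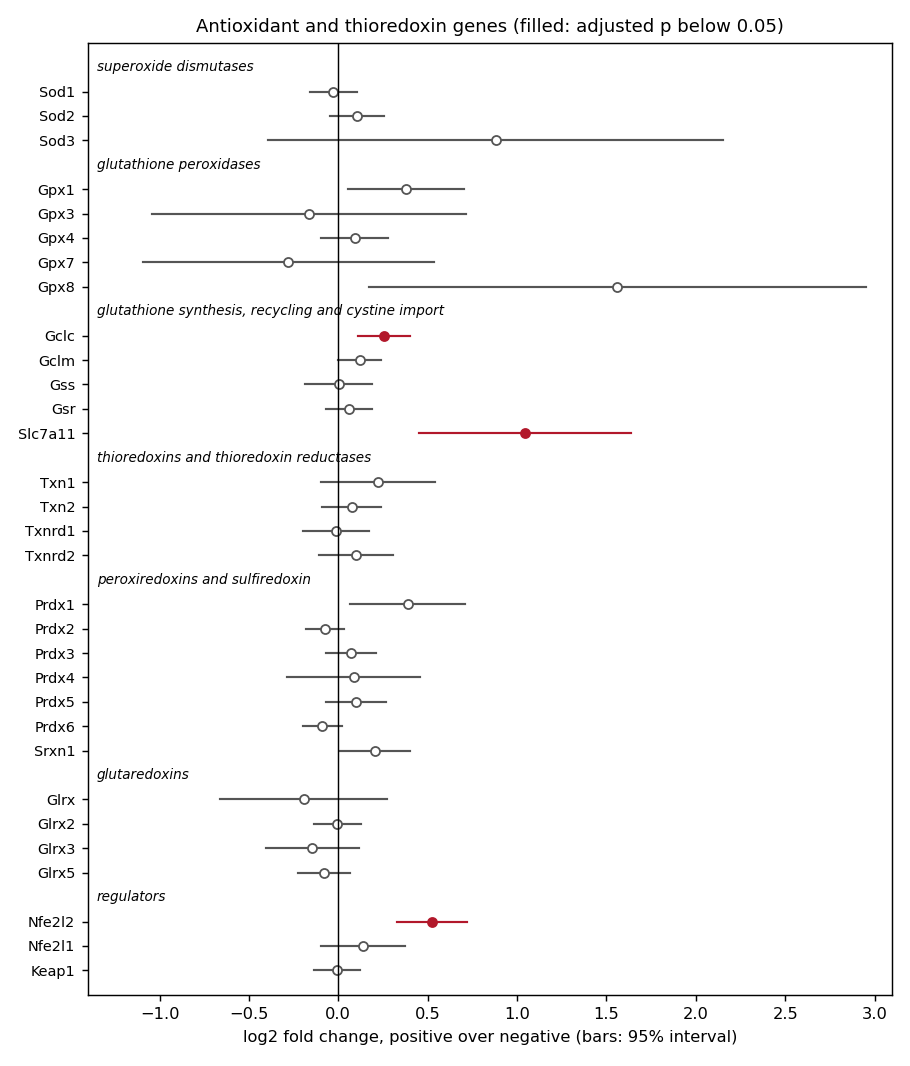
Log2 fold change (horizontal axis, positive over negative) of the 31 genes, grouped by role down the page, with points for the estimate of edgeR and bars for its 95% interval, and filled red points for adjusted p below 0.05. Filled points are Gclc, Slc7a11 and Nfe2l2, all to the right of 0, and the intervals of Sod3, Gpx3, Gpx7 and Gpx8 are the widest.

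Per unit of exon length the members spanned a wide range. Levels in TPM (counts per exon length, scaled to the same total in every library), computed from the counts and exon lengths of GENCODE M21, were highest for Gpx3, the secreted plasma glutathione peroxidase, at 298 ± 175 TPM in positive and 326 ± 143 TPM in negative cells (SD, n = 7 each). Next came Nfe2l1, a relative of Nfe2l2 whose product NRF1 also drives proteasome genes, at 313 ± 47.6 and 278 ± 52.3 TPM in positive and negative cells. Their ranges over libraries overlap, so the order of these top genes is not fixed. Srxn1, which encodes sulfiredoxin, the enzyme that repairs overoxidized peroxiredoxins, had 271 ± 21.9 TPM in positive and 230 ± 37.7 TPM in negative cells. Gpx1, the main cytosolic glutathione peroxidase, and Txnrd1, the cytosolic thioredoxin reductase, followed. At the other end, Sod3, the extracellular superoxide dismutase, and Gpx7 and Gpx8, peroxidases of the endoplasmic reticulum, were all below 4 TPM on average in both groups. Nfe2l2 itself was at 44.8 ± 6.52 TPM in positive and 30.4 ± 3.91 TPM in negative cells.

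**Figure D2:**
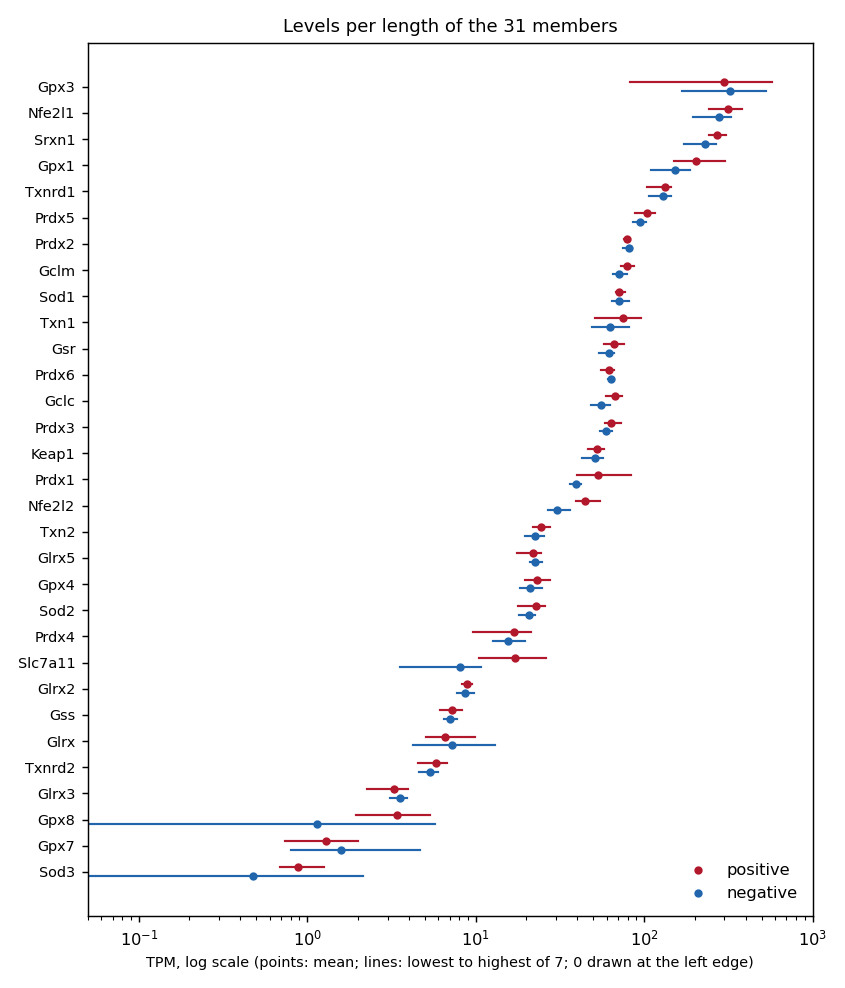
Level per length in TPM (horizontal axis, log scale) of the 31 genes, ordered by their mean over all 14 libraries, with points for group means and lines from the lowest to the highest of 7 libraries, red for positive and blue for negative. Gpx3 has the widest range among abundant genes. Group means lie apart in Gpx8, Slc7a11, Sod3 and Nfe2l2, and of these genes only Nfe2l2 has ranges that do not overlap.

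The smallest adjusted p of the 31 belonged to the regulator Nfe2l2 (chromosome 2, 75675513 to 75704641, GRCm38). It had 55.1 CPM in the lowest, 60.8 CPM in the median and 78.9 CPM in the highest positive library, against 39.9, 43.5 and 51.7 CPM in the lowest, median and highest negative library. The groups did not overlap, which in this direction held for 2 of the 31 (Slc7a11 was the other) and for 3.50% of all genes tested. The log2 fold change was 0.52 ± 0.09 (SE, adjusted p = 0.00138), and the call held when any single library was left out (adjusted p 0.000856 to 0.0045). Positive 6 and 7, with the highest macrophage and endothelial sums, also had the highest Nfe2l2 levels, at 78.9 and 77.5 CPM. Without the libraries numbered 6 and 7 the log2 fold change was 0.34 ± 0.08 (adjusted p = 0.0304), and the part of other cell types in it was not tested.

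The other regulators did not pass the test with all libraries. Nfe2l1 ranged from 517 to 758 CPM in positive and from 441 to 691 CPM in negative libraries (log2 fold change 0.14 ± 0.11, adjusted p = 0.525), and was higher in 6 of 7 pairs. With the block its adjusted p was 0.0724, and with the block and without the libraries numbered 6 and 7 it was called (0.21 ± 0.05, adjusted p = 0.0463). Keap1, the repressor that holds NRF2 in the cytoplasm, was at 92.8 ± 5.03 CPM in positive and 93.3 ± 8.26 CPM in negative cells (SD, n = 7 each). Its log2 fold change was −0.01, with a 95% interval of −0.14 to 0.12. Among 11 tested partners and repressors of NRF2, among them the small MAF factors, Bach1, Cul3 and Sqstm1, 0 were called by edgeR without the block, 3 had an unadjusted p below 0.05, and 2 were higher and 1 lower with the block. Of all 16350 genes tested, 3457 had an unadjusted p below 0.05, and with the block 11.8% were higher and 7.77% lower.

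Of the 5 genes for cystine import and for glutathione synthesis and recycling, Slc7a11 and Gclc were called higher in positive cells and 3 were not called. Slc7a11 encodes the cystine/glutamate exchanger xCT, which brings in the cystine from which cysteine for glutathione is made (chromosome 3, 49892526 to 50443614). It had 57.0, 78.3 and 137 CPM in the lowest, median and highest positive library, against 20.7, 53.2 and 56.5 CPM in the lowest, median and highest negative library. The ranges missed each other narrowly, since the lowest positive library (positive 2) lay just above the highest negative library (negative 6), and negative 1 and 2 were the low ones of their group at 22.5 and 20.7 CPM. The log2 fold change was 1.05 ± 0.28 (SE, adjusted p = 0.0308), higher in all 7 pairs. The call was lost without positive 1, 6 or 7 or negative 1 or 5 (adjusted p up to 0.0735), and without the libraries numbered 6 and 7 the log2 fold change was 0.92 with an adjusted p of 0.144. Positive 6 and 7 had the highest levels, at 137 and 126 CPM, and also the highest macrophage sums. The part of other cell types in Slc7a11 was not tested.

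The stretch before the start of Slc7a11 is shown because the gene had the largest fold change of the 3 called, and because it is a textbook target of both NRF2 and the amino acid stress factor ATF4. In the 250 bases before its start (RefSeq, GRCm38.p6, chr3:50443614-50443863, minus strand), capitals mark matches to TGATGNAA, the core bound by C/EBP and ATF dimers, searched on both strands.
Slc7a11: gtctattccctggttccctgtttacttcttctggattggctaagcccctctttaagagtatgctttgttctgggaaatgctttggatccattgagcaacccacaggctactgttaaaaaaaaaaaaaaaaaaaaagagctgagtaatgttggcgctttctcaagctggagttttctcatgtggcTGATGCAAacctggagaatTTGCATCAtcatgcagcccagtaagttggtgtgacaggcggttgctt
There are 2 matches in opposite orientation, with their leftmost bases 66 and 47 bases before the start. The motif was found in the window of 1 of the 27 members that had one, this gene, and in 4.51% of the 27025 genes with a window (250 bases before to 50 after the start). Sod3, Gclc, Gsr and Prdx6 had no window.

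Gclc encodes the catalytic subunit of glutamate-cysteine ligase, the rate-limiting enzyme of glutathione synthesis (chromosome 9, 77754535 to 77794485). It had 82.1, 97.6 and 107 CPM in the lowest, median and highest positive library, against 72.4, 79.5 and 90.6 CPM in the lowest, median and highest negative library. The groups overlapped, since positive 3 and 5 lay below negative 4, but the positive library was higher in all 7 pairs. The log2 fold change was 0.26 ± 0.07 (SE, adjusted p = 0.0291). Its call was lost without positive 1, 6 or 7 or negative 1, 2, 5 or 7 (adjusted p up to 0.0795) and without the libraries numbered 6 and 7 (log2 fold change 0.24, adjusted p = 0.246).

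The rest of glutathione synthesis and recycling was not called. Gclm, the modifier subunit of the same ligase, was at 189 ± 13.5 CPM in positive and 174 ± 10.2 CPM in negative cells (SD, n = 7 each; log2 fold change 0.12 ± 0.06, adjusted p = 0.239), and was higher in all 7 pairs. Gss, glutathione synthetase, had 16.2 ± 2.01 CPM in positive and 16.2 ± 1.61 CPM in negative cells, a log2 fold change of 0.0012 with a 95% interval of −0.19 to 0.19. Gsr, glutathione reductase, had a log2 fold change of 0.06 with an interval of −0.07 to 0.19. Slc3a2, the heavy chain that carries xCT to the membrane, was at 735 ± 109 CPM in positive and 604 ± 143 CPM in negative cells. It was higher in all 7 pairs and called with the block (adjusted p = 0.00647), but not without it (0.28 ± 0.15, adjusted p = 0.294).

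**Figure D3:**
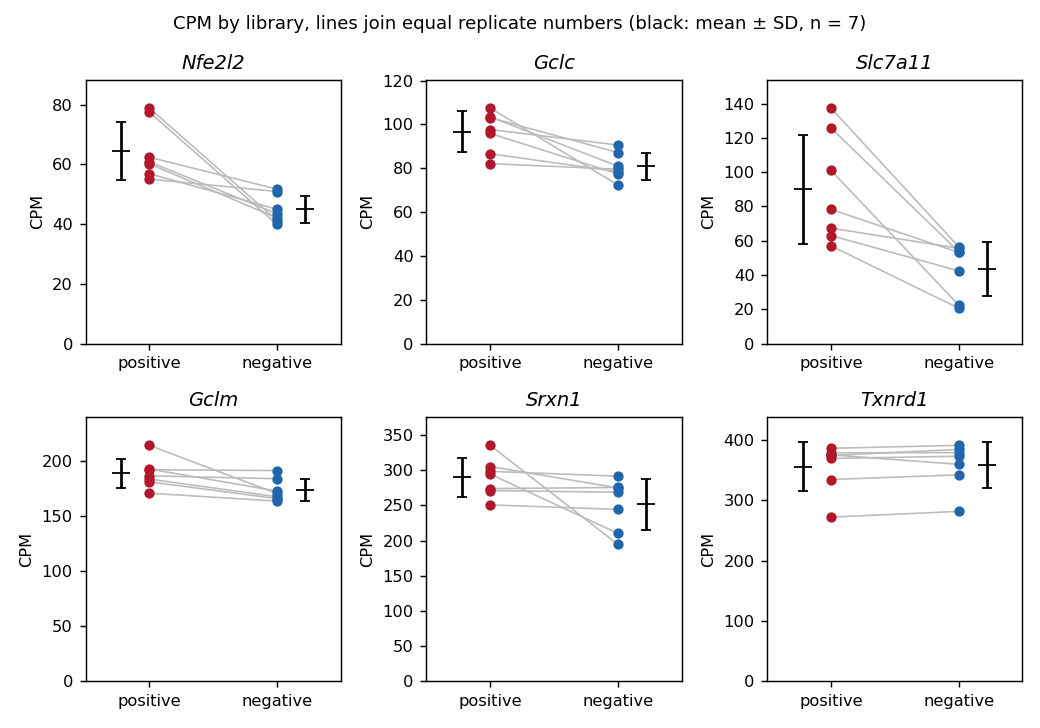
CPM (vertical axes, from 0) of 6 genes in the 7 positive (red, left) and 7 negative (blue, right) libraries, with grey lines between libraries of equal replicate number and black marks for mean ± SD. All 7 lines of Nfe2l2, Gclc, Slc7a11 and Gclm slope down to the negative library, whereas those of Txnrd1 are nearly level and library 3 is the lowest of both groups.

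Slc7a11 and Gclc are known as NRF2 targets in other cells, and so are Gclm, Srxn1, Txnrd1 and Prdx1, which were not called. Srxn1 had 251, 295 and 336 CPM in the lowest, median and highest positive library, against 195, 269 and 292 CPM in the lowest, median and highest negative library. The groups overlapped, and the log2 fold change of 0.21 ± 0.09 was not called (adjusted p = 0.212; unadjusted p = 0.0415). Txnrd1 gave 356 ± 40.6 CPM in positive and 359 ± 37.9 CPM in negative cells (SD, n = 7 each), with a 95% interval of its log2 fold change of −0.20 to 0.17, and was higher in 1 of 7 pairs. Hmox1, which encodes heme oxygenase 1 and is not among the 31, had 440, 540 and 806 CPM in the lowest, median and highest positive library, against 275, 332 and 453 CPM in the lowest, median and highest negative library. Its log2 fold change of 0.76 ± 0.15 was called (adjusted p = 0.00336), but not without the libraries numbered 6 and 7 (0.75, adjusted p = 0.0652). Nqo1, the quinone reductase often used to read out NRF2, was low at 5.52 ± 1.51 CPM in positive and 4.10 ± 0.71 CPM in negative cells (adjusted p = 0.163).

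The windows of 6 of the 27 members with a promoter sequence (22.2%) held TGACNNNGC, the core of the antioxidant response element that NRF2 binds, searched on both strands, against 3781 of the 27025 genes with a window (14%). They are shown because Nfe2l2 was among them, with the core (capitals) in 10 bases of flank on either side, read along the gene's own strand (RefSeq, GRCm38.p6).
Nfe2l2: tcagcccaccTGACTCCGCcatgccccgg
Gclm: gctcccgggcGCACCGTCAactctcacga
Prdx1: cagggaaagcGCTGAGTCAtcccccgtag
Txnrd1: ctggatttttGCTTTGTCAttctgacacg
Sod1: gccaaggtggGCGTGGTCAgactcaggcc
Srxn1: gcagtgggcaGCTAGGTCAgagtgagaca
These lie at chr2:75704885-75704913 (minus strand) for Nfe2l2, and on the plus strand at chr3:122245413-122245441 for Gclm, chr4:116685456-116685484 for Prdx1, chr10:82859104-82859132 for Txnrd1, chr16:90220696-90220724 for Sod1 and chr2:152105542-152105570 for Srxn1. The core is on the gene's strand in Nfe2l2 and on the opposite strand in the other genes. Of these 6 genes Nfe2l2 alone was called, and the called Slc7a11 had no match in its window. A match of letters is not a measured binding site, and sites outside these windows were not searched.

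The superoxide dismutases were not called. Sod1, the cytosolic copper-zinc enzyme, was at 107 ± 6.00 CPM in positive and 109 ± 10.1 CPM in negative cells (SD, n = 7 each), and its log2 fold change had a 95% interval of −0.16 to 0.10. Sod2, the mitochondrial manganese enzyme, was at 86.8 ± 9.16 and 80.6 ± 5.82 CPM in positive and negative cells (log2 fold change 0.11 ± 0.07, adjusted p = 0.428). Ccs, the chaperone that loads copper into SOD1, was at 13.3 ± 1.00 CPM in positive and 14.3 ± 0.895 CPM in negative cells (adjusted p = 0.394).

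Sod3 and Gpx8 depended on a single library. Sod3 had 0.954, 1.21 and 1.81 CPM in the lowest, median and highest positive library, against 0, 0.27 and 2.95 CPM in the lowest, median and highest negative library. Gpx8 had 0.763, 1.37 and 2.11 CPM in the lowest, median and highest positive library, against 0, 0.202 and 2.22 CPM in the lowest, median and highest negative library. In both genes the highest negative library was negative 3, and the other 6 negative libraries lay below all 7 positive ones. With all 14 libraries neither was called (Sod3 0.88 ± 0.60, adjusted p = 0.436; Gpx8 1.56 ± 0.65, adjusted p = 0.178). Without negative 3 both were called higher, Sod3 with a log2 fold change of 1.98 (adjusted p = 0.0044) and Gpx8 with 2.99 (adjusted p = 0.000457). These levels rest on few reads, 171 over the positive and 82 over the negative libraries for Sod3, and 183 and 54 for Gpx8. Both genes passed the filter on low counts through the positive libraries, where they had to be the higher, so the values without negative 3 describe that library's weight and support no difference between the groups.

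Gpx7 shared the high value of negative 3 but not the difference among the rest. It was at 2.22 CPM in negative 3, and between 0.359 and 0.971 CPM in the positive libraries. Its log2 fold change was −0.28 ± 0.38 with all libraries and 0.25 without negative 3, called in neither fit (adjusted p = 0.734 and 0.608). The summed pericyte, stellate and fibroblast markers were 1464 CPM in negative 3, 52.9 to 252 CPM in the positive libraries and 16.2 to 72.8 CPM in the other negative libraries. The collagen genes Col3a1, Col1a1 and Col1a2 led that sum. Of the 10 markers tested 5 were higher and 0 lower in positive cells, against 6.40% and 1.63% of all genes tested. Markers near 0 in most negative libraries passed the filter on low counts through the positive ones. The count of 5 was therefore partly fixed in advance. The part of such cells in the values of Sod3, Gpx7 and Gpx8 was not tested.

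**Figure D4:**
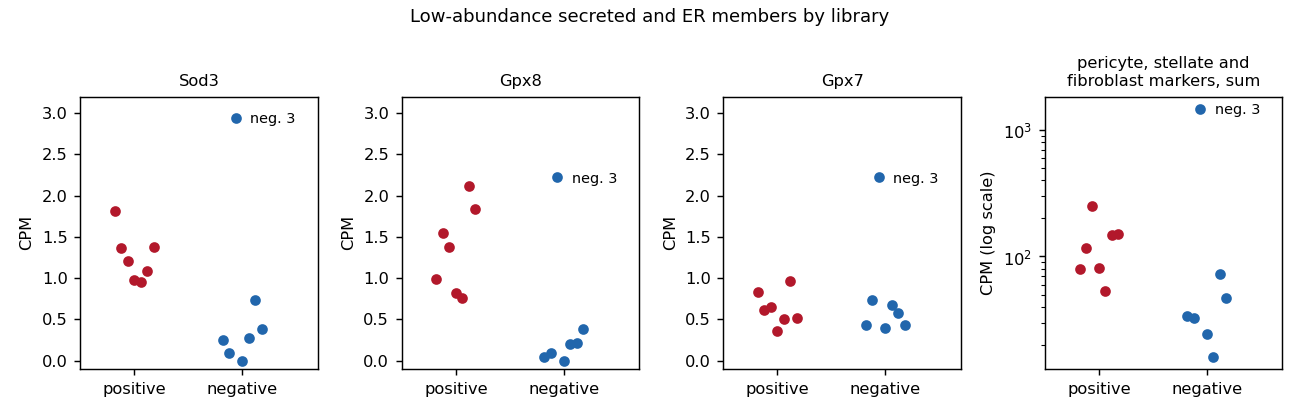
CPM of Sod3, Gpx8 and Gpx7 (linear axes) and summed CPM of 13 pericyte, stellate and fibroblast markers (log axis) in each positive (red, left) and negative (blue, right) library. Negative 3, named in each panel, is the highest of the 14 libraries in all 4 panels, at 1464 CPM in the marker sum.

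Among the abundant glutathione peroxidases, Gpx1 passed the test in the paired fit alone. It had 83.9, 97.7 and 170 CPM in the lowest, median and highest positive library, against 63.2, 86.0 and 102 CPM in the lowest, median and highest negative library. The ranges overlapped, positive 2 stood at the top, and 6 of 7 pairs were higher in the positive library. The log2 fold change was 0.38 ± 0.15 (adjusted p = 0.163), and 0.35 with the block (adjusted p = 0.0218). It was 0.23 without positive 2, and without the libraries numbered 6 and 7 the blocked fit did not call it (0.28, adjusted p = 0.162). Gpx4, which reduces lipid peroxides in membranes and guards against ferroptosis, had 15.1 ± 1.83 CPM in positive and 14.1 ± 1.43 CPM in negative cells (adjusted p = 0.598).

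Gpx3 varied more between libraries of a group than between the groups. It had 54.9, 178 and 399 CPM in the lowest, median and highest positive library, against 120, 181 and 383 CPM in the lowest, median and highest negative library (log2 fold change −0.16 ± 0.41, adjusted p = 0.864). Its order over libraries followed that of the alpha cell markers. Among positive libraries Gpx3 was lowest in positive 3 and highest in positive 7, where the sum of 7 alpha cell markers, led by Gcg, was 3457 and 27479 CPM. The delta cell sum (309 and 2198 CPM) and the PP cell sum (868 and 5008 CPM) were also lowest and highest in these libraries. Among negative libraries the 3 with the most Gpx3 (negative 1, 2 and 3, at 383, 334 and 296 CPM) were also the 3 with the highest alpha sums, 28087, 25503 and 26319 CPM, and the other 4 had at most 181 CPM of Gpx3 and at most 13981 CPM of alpha markers. Of the 7 alpha cell markers 0 were called between the groups by edgeR, 1 had an unadjusted p below 0.05, and 0 were called with the block.

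**Figure D5:**
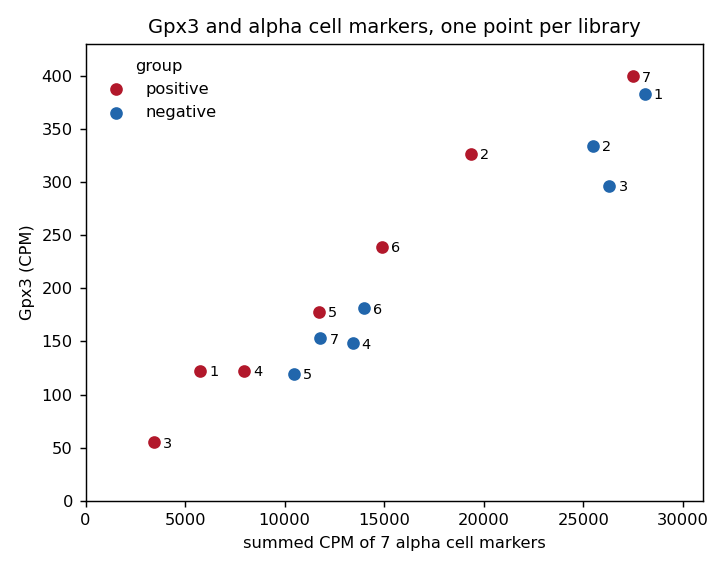
Gpx3 in CPM (vertical axis) against the summed CPM of 7 alpha cell markers (horizontal axis), 1 point per library, labelled by replicate number, red for positive and blue for negative. Points of both groups rise from positive 3 at 54.9 CPM of Gpx3 to positive 7 at 399 CPM.

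In the thioredoxin system no reductase or thioredoxin was called, but the thioredoxin-binding inhibitor Txnip was lower. Txn1, cytosolic thioredoxin, had 30.2 ± 7.31 CPM in positive and 25.8 ± 4.41 CPM in negative cells (SD, n = 7 each; log2 fold change 0.22 ± 0.15, adjusted p = 0.427). Txn2 and Txnrd2, the mitochondrial thioredoxin and its reductase, had log2 fold changes of 0.08 and 0.10 (adjusted p = 0.632 and 0.619). Txnip, which is induced by glucose in beta cells, had 191, 215 and 287 CPM in the lowest, median and highest positive library, against 262, 346 and 476 CPM in the lowest, median and highest negative library. The groups overlapped, since positive 4 lay above negative 7, and the positive library was lower in all 7 pairs. The log2 fold change of −0.72 ± 0.13 was called (adjusted p = 0.00169), also without any single library (adjusted p up to 0.00416) and without the libraries numbered 6 and 7 (−0.83, adjusted p = 0.00284). Of the 16 thioredoxin-linked proteins tested, Txnip was the 1 lower gene and 0 were higher, against 1.63% and 6.40% of all genes tested.

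Of the 6 peroxiredoxins, thiol peroxidases that draw on thioredoxin (Prdx6 on glutathione), 0 were called. Prdx1, a cytosolic one, had 45.3, 58.7 and 96.2 CPM in the lowest, median and highest positive library, against 42.6, 47.6 and 51.2 CPM in the lowest, median and highest negative library. The 2 highest were positive 6 and 7, at 96.2 and 76.6 CPM, the libraries with the most macrophage and endothelial marker RNA. The log2 fold change was 0.39 ± 0.15 (adjusted p = 0.144) with all libraries and 0.11 ± 0.10 without those numbered 6 and 7 (adjusted p = 0.715). The part of other cell types in Prdx1 was not tested. Prdx2, Prdx3, Prdx5 and Prdx6 lay between −0.09 and 0.10 on the log2 scale. Prdx2, the cytosolic partner of Prdx1, was at 91.9 ± 2.69 CPM in positive and 96.8 ± 6.52 CPM in negative cells, and Prdx6 at 112 ± 6.09 and 119 ± 6.44 CPM in positive and negative cells. Prdx4, the peroxiredoxin of the endoplasmic reticulum, had 13.5 ± 3.82 and 12.7 ± 2.18 CPM in positive and negative cells (adjusted p = 0.829).

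The 4 glutaredoxins, which reduce proteins joined to glutathione or carry iron-sulfur clusters, all had log2 fold changes below 0, and 0 of the 4 were called or had an unadjusted p below 0.05. Glrx, the cytosolic one, ranged from 10.3 to 21 CPM in positive and from 8.66 to 28.4 CPM in negative libraries (adjusted p = 0.671). Library 1 was the highest of both groups. Glrx2, of mitochondria and nucleus, had 29.5 ± 2.02 CPM in positive and 29.6 ± 2.21 CPM in negative cells (SD, n = 7 each), a log2 fold change with a 95% interval of −0.13 to 0.13. Glrx3 and Glrx5, both of iron-sulfur cluster handling, had −0.14 ± 0.12 and −0.08 ± 0.07 (adjusted p = 0.547 and 0.558).

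A wider list of redox genes was read in the same fit. Of 128 such genes in the table, 116 were tested, 10 were higher, 7 lower and 99 not called (14.7% called, against 8.03% of all genes), with a median log2 fold change of 0.02. With the block 19 were higher and 17 lower, where 11.8% and 7.77% of all genes tested were. Without the libraries numbered 6 and 7, 3 were higher (Slc1a1, Hpgds and Gsto1) and 3 lower (Txnip, Anpep and Gstz1).

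Of 16 genes outside the 31 for defence against peroxide and aldehydes and for methionine repair, 3 were higher, against 6.40% of all genes tested. Cat, which encodes catalase, had 3.88, 7.41 and 16.6 CPM in the lowest, median and highest positive library, against 1.62, 2.52 and 4.05 CPM in the lowest, median and highest negative library (log2 fold change 1.58 ± 0.33, adjusted p = 0.00529). The ranges overlapped, since positive 5 lay below negative 1, and all 7 pairs were higher in the positive library. Positive 6 and 7 were the highest, at 16.6 and 11.4 CPM, and without the libraries numbered 6 and 7 the log2 fold change was 1.06 (adjusted p = 0.0687; 0.00699 with the block). Msrb3 and Msrb1, which repair oxidized methionine, had log2 fold changes of 1.76 ± 0.33 and 0.40 ± 0.12 (adjusted p = 0.00226 and 0.0464). Without the libraries numbered 6 and 7 the log2 fold change of Msrb3 was 1.49 ± 0.42, which was not called (adjusted p = 0.0883; 0.0144 with the block). Msrb1 lost its call without any of positive 1, 2, 6 and 7 and negative 2, 4, 5, 6 and 7 (adjusted p up to 0.121).

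Of 15 tested genes that use or turn over glutathione 5 were higher and 3 lower, against 6.40% and 1.63% of all genes tested. Hpgds, which makes prostaglandin D and belongs to the glutathione transferases, had 60.8 ± 8.17 CPM in positive and 31.8 ± 9.02 CPM in negative cells (SD, n = 7 each; log2 fold change 0.93 ± 0.17, adjusted p = 0.00175), with no overlap of the groups. Slc1a1, a carrier of glutamate and cysteine, was low, at 2.50 ± 0.99 CPM in positive and 0.40 ± 0.27 CPM in negative cells (2.56 ± 0.36, adjusted p = 0.000237). It had 52 reads over all negative libraries and passed the filter on low counts through the positive ones, so that a gene kept in this way had to be higher there. Its edgeR adjusted p without the filter, 9.58e-05, comes from the same counts and is no independent support. The place of Slc1a1 among the 5 higher genes therefore supports no difference between the groups. Gsto1, an omega class glutathione transferase, also rose (0.64 ± 0.13, adjusted p = 0.00562). Anpep, an aminopeptidase that cleaves the dipeptide left from glutathione, fell to 66.4 ± 11.2 CPM in positive cells, against 101 ± 12.6 CPM in negative cells (−0.60 ± 0.11, adjusted p = 0.00138), and Gstz1, of tyrosine breakdown, fell as well (−0.45 ± 0.10, adjusted p = 0.0058). The groups did not overlap in Anpep and Gstz1, in a direction where this held for 0.355% of all genes tested.

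Of 20 tested NRF2 target enzymes 1 was higher, Hmox1, and 2 were lower, the epoxide hydrolase Ephx1 (−0.22 ± 0.06, adjusted p = 0.027) and the aldehyde oxidase Aox1 (−0.58 ± 0.15, adjusted p = 0.0204). Over all genes tested 6.40% were higher and 1.63% lower, so 1 higher of 20, and 1 of 17 in the next list, are near the background. Of 17 genes of NADPH supply 1 was higher, Pgd of the pentose phosphate pathway, at 90.4 ± 19.2 CPM in positive and 68.8 ± 5.78 CPM in negative cells (SD, n = 7 each). Its adjusted p of 0.0495 passed the threshold narrowly and was above it when any of 10 of the 14 libraries was left out (up to 0.127) or DESeq2's size factors were used for scaling (0.0515). G6pdx, which opens the same pathway, had a log2 fold change of 0.08 with a 95% interval of −0.07 to 0.22. Nnt, the mitochondrial transhydrogenase, of which C57BL/6J mice are known to lack several exons, was at 0.735 ± 0.247 CPM in positive and 0.718 ± 0.143 CPM in negative cells. Of 21 genes for selenoproteins and their synthesis 1 was lower, Selenoh (−0.32 ± 0.09, adjusted p = 0.0322; up to 0.0646 without positive 3, 4, 6 or 7 or negative 5). With the block 1 of the 21 was higher and 5 were lower, where 11.8% and 7.77% of all genes tested were.

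Some levels are uncertain because of how reads fall on genes. Exons of Gclm, Gss, Keap1, Prdx2, Prdx5 and Txnrd2 overlap other genes in the annotation, and the strand setting of the counting is not given in the sources used here. Prdx2 shares 173 of its 3050 exon bases with Junb, an immediate early gene on the opposite strand. Gpx4, Txn1, Prdx2 and Prdx6 have named pseudogenes or related copies in the annotation, and reads that match such copies may have been lost or split.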

How the data were processed

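The authors deposited a table of raw counts, 1 column for each of 14 libraries. Per the labels' protocols, polyadenylated RNA was selected and libraries were made with a directional kit. Per the submitters' processing notes, reads were aligned with Subread to GRCm38 and counted with featureCounts; versions, annotation and strand setting are not given in the sources used here. Columns were matched to samples by the column name in each title.

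Counts were fitted here with edgeR 4.0.16 (R 4.3.3): filterByExpr with its minimum count of 10, TMM scaling (factors 0.969 to 1.03), robust dispersions and the quasi-likelihood F-test with group as the only term, two-sided. Standard errors come from the F statistic, and 95% intervals from its degrees of freedom. CPM use the TMM-scaled totals, and TPM the exon lengths of GENCODE M21 for the 91.5% of symbols that matched 1 gene. The code was tested on simulated data. Alternatives were the replicate number as a block, DESeq2 1.42.0 and its size factors, no filter, leaving out each library, and leaving out the libraries numbered 6 and 7 or 3 (the last chosen after seeing the data).

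Same-numbered libraries resembled each other: over genes, their deviations from the group mean had correlations of 0.203 to 0.541 in the 7 pairs. In 6 of 7 positive libraries the highest correlation was with the negative library of the same number. The median between different numbers was −0.125, and centring on group means pushes this value below 0 when same-numbered libraries correlate. The pairs were taken from the numbers, although the labels give no meaning to a number. Whether libraries are from different animals is not stated either, and p-values therefore measure only how much these libraries vary, which may be technical. No 2 libraries of a group agreed within sampling noise (lowest chi-square per degree of freedom 5.36).

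The 31 members and all lists were chosen with earlier results of these data known. Outside the members, the text names the called genes of each redox list (at most 5 by smallest p), 8 fixed genes, and the most abundant markers; marker Cldn5 and genes named as listed, such as the small MAF factors, were added after the values were seen.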

Additional observations from a re-analysis of the deposited data

Results flagged for a closer look

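In 6 of 62 groups of 7 libraries (31 genes in each group), a single library lay far from the rest, with a gap to its neighbour that took more of the whole range than Dixon's 95% critical value allows. Chance alone marks about 1 in 20 such groups. Negative 3 was the high library in 3 of them, with 2.95 CPM of Sod3 against at most 0.739 CPM in the other negative libraries, 2.22 CPM of Gpx7 against at most 0.741 CPM, and 2.22 CPM of Gpx8 against at most 0.38 CPM. The same library held the most pericyte, stellate and fibroblast marker RNA. Glrx was high in library 1 of both groups, at 21 CPM in positive 1 (the next library had 14.4 CPM) and 28.4 CPM in negative 1 (next 16.7 CPM). Glrx5 was low in positive 7, at 24.7 CPM, against 30.1 CPM in the next lowest positive library.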

How the results depend on the processing

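Of the 31 genes, Nfe2l2 was called in every setting run, and Slc7a11 and Gclc were lost without a filter on low counts (1 gene called, adjusted p = 0.0764 and 0.06), without the libraries numbered 6 and 7 (1 called), and in some fits without a single library. Leaving out 1 library gave 1 to 5 higher and 0 lower, the 5 without negative 3 (Sod3 and Gpx8 added). Without both libraries numbered 3 there were 5, and 7 with the block. Over all genes, 1614 and 3849 were called in these 2 fits, against 1313 with all libraries and no block. Sod3 and Gpx8 were among the 5 and the 7, and the setting was chosen after seeing the data. The rise in members called therefore supports no difference between the groups. Over all genes, 1930 were higher and 1270 lower with the replicate block, 1602 and 477 with DESeq2, 536 and 45 without libraries 6 and 7 (514 lower with the block as well), and 2116 and 1733 without libraries 3 with the block. Leaving out 1 library gave 825 to 1267 higher and 140 to 616 lower (lowest without positive 6, highest without negative 3). Of the wider redox genes, 19 were higher and 17 lower with the block, 3 and 3 without libraries 6 and 7 (11 lower with the block), 22 and 17 without libraries 3 with the block, and 7 to 11 higher and 6 to 11 lower without 1 library. Other settings kept these counts within 1.5 times. With all libraries the block changed no call of the 31 other than that of Gpx1, without libraries 6 and 7 it added Nfe2l1, and without libraries 3 it added Gpx1 and Txn1. The cause of these shifts was not tested.

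Some values changed sign, most of them near 0 but also the collagen genes and Gpx7, which turned without negative 3, and none was called in the setting that turned it. Gss had −0.0031 with the block, −0.0047 with DESeq2's size factors, −0.020 without a filter, −0.0040 with DESeq2, and −0.053 and −0.059 without libraries 6 and 7 (without and with the block). In the same 2 fits Prdx4 had −0.12 and −0.16, Prdx5 −0.00073 and −0.0019, Keap1 0.026 and 0.027, Nnt −0.10 and −0.11 and Pyy −0.15 and −0.19. Without libraries 3, Gpx3 had 0.057 and 0.069 and Gpx7 0.25 and 0.25 (without and with the block), and with the block Glrx2 had 0.0017 and Col1a2 0.0017. Without 1 library, the ranges that crossed 0 were −0.43 to 0.0031 for Gpx3, −0.42 to 0.25 for Gpx7, −0.057 to 0.043 for Gss, −0.079 to 0.044 for Txnrd1, −0.34 to 0.012 for Glrx, −0.041 to 0.019 for Glrx2, −0.052 to 0.015 for Keap1, −0.11 to 0.088 for Nnt, −0.0068 to 0.42 for Pyy, −3.33 to 0.80 for Col3a1, −3.36 to 0.63 for Col1a1 and −2.57 to 0.73 for Col1a2. Depth limits Sod3, Gpx7 and Gpx8, which rest on 54 to 183 reads over the 7 libraries of a group.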

Other observations

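Across the 7 positive libraries Gpx3 rose with the summed alpha cell markers (Pearson r = 0.989, exact permutation p = 0.000198, the smallest these permutations can give; Spearman rho = 1, exact permutation p = 0.000397). The relation was noticed in the data before it was computed, so these p-values describe what prompted them and are no independent test. Each of the 31 genes was set against the same sum in both groups, 62 relations in all, and the Benjamini-Hochberg adjusted p-values of these exact permutation tests for Gpx3 were 0.0123 and 0.0246. This adjustment does not cover the choice of the alpha cell sum among 9 marker sums. The delta and PP cell sums were also lowest in positive 3 and highest in positive 7. Gpx3 was not set against them, so the relation is not shown to be particular to alpha cells. Without the 2 libraries farthest from the median of the marker sum, positive 3 and 7, r was 0.982. In the negative libraries the marker sum fell into 2 separate sets, of 3 and of 4 libraries, so no r is given there.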
